A study of Mus musculus with 4 samples.

Results

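Non-coding RNA genes were followed in 4 RNA-seq libraries of mouse liver natural killer (NK) cells (strain C57BL/6), with 2 libraries from flow-sorted TRAIL+ cells and 2 from CD49b+ cells. Both subsets lacked the T-cell receptor beta chain and carried NK1.1 and NKp46; TRAIL+ cells bore the death ligand TRAIL without the integrin CD49b, and CD49b+ cells the reverse. The labels name no genetic change, treatment or age, and they do not say whether the replicates came from separate mice or from pools, so the error behind every p-value is that between libraries and may be only technical. Genes were selected on their level: all RefSeq accessions of the row had to be of the non-coding type, and its RPKM (reads scaled to transcript length and library size) had to reach 1 in 2 or more libraries. This took 193 genes of 1132 non-coding rows and of 21025 rows in all. Of the non-coding rows, 426 had a value above 0 in any library. The level chose the genes, so that they were detected is no result.

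By name and RefSeq gene type the 193 genes were 69 uncharacterised transcripts, 52 small RNAs (34 snoRNAs, 14 miRNA precursors, 2 scaRNAs and 2 others), 42 pseudogenes, 15 host genes of snoRNAs or miRNAs, 9 characterised long non-coding RNAs and 6 opposite-strand transcripts. The later RefSeq table types 6 of them as protein-coding, 1810058I24Rik, Mtln, 0610012G03Rik, 2610001J05Rik, Smim4 and Rhno1. None of these 6 was called, against 8.62% of all 10047 rows tested. Just inside the threshold stood 1110002L01Rik, C130036L24Rik and Bambi-ps1, whose second-highest library held 1.00, 1.00 and 1.01 RPKM. Just outside stood 4930503E24Rik, D430020J02Rik and Rmrp at 0.988, 0.966 and 0.957 RPKM.

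Non-coding RNA is a mixed class. snoRNAs guide the chemical modification of ribosomal RNA and are cut from the introns of host transcripts. In some of these hosts the spliced exons are left without a protein product and are removed by nonsense-mediated decay. miRNA precursors are hairpins trimmed to short RNAs that repress messenger RNAs through their seed bases. Long non-coding RNAs such as Malat1 and Neat1 stay in the nucleus at speckles and paraspeckles, Xist coats the inactive X chromosome, and Morrbid supports the survival of short-lived myeloid cells by repressing the pro-apoptotic gene Bcl2l11. Processed pseudogenes are copies of messenger RNAs, and their rows can take reads that belong to the gene they were copied from. The libraries were made from polyA RNA, and mature small RNAs have no polyA tail, so the row of a small RNA need not stand for the mature molecule.

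The most abundant non-coding row, Mir682, was nearly the same stretch of letters as a ribosomal protein messenger RNA. Mir682 lies on chromosome 13 (chr13:75645046-75645141 of GRCm38.p6, plus strand). Its 96-base hairpin matched bases 151 to 246 of the coding sequence of Rpl37a, a large-subunit ribosomal protein gene, at 95 of 96 bases. Both are shown because this overlap bears on the largest value of the set; the capital letter marks the 1 base at which they differ. The hairpin is from RefSeq and the coding stretch from GENCODE M21.
Mir682 hairpin: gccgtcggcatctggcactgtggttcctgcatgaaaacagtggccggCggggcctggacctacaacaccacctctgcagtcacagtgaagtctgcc
Rpl37a coding stretch: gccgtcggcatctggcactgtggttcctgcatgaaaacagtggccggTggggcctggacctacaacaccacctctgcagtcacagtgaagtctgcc

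Of the 14 miRNA precursors, 13 had a mature sequence in RefSeq, 21 sequences in all, and no 2 of these shared a seed. The arms below are shown because Mir142 is the precursor of a blood-cell miRNA and Mir23a, Mir27a and Mir24-2 form a cluster on chromosome 8; capitals mark the seed, bases 2 to 8.
mmu-miR-682: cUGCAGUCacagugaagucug
mmu-miR-142a-5p: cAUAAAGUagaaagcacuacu
mmu-miR-142a-3p: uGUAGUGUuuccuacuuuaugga
mmu-miR-23a-3p: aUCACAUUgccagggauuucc
mmu-miR-27a-3p: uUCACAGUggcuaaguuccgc
mmu-miR-24-3p: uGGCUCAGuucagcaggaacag

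The libraries held 3786497 to 4232967 reads, as recovered from the step size of RPKM. The 193 genes took 0.508% of the reads counted over all rows in TRAIL+ replicate 1 (95% Wilson interval 0.501 to 0.515), 0.652% in TRAIL+ replicate 2 (0.644 to 0.661), 0.458% in CD49b+ replicate 1 (0.452 to 0.465) and 0.529% in CD49b+ replicate 2 (0.522 to 0.537). Replicate 2 was above replicate 1 in both subsets, and the subsets overlapped. These intervals cover counting error only. The median level of the set was 4.23 RPKM, against 13.8 RPKM for the 9854 other rows that passed the same threshold. The sort genes followed the labels: Tnfsf10, which encodes TRAIL, held 208 and 189 RPKM in TRAIL+ and 7.26 and 6.94 in CD49b+ libraries. Itga2, which encodes CD49b, held 5.26 and 1.55 against 52.1 and 37.0 RPKM, and Ncr1, which encodes NKp46, stood between 978 and 1114 RPKM in all 4.

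Markers of other cells were summed over fixed lists to show what else the sorted cells held. All 7 tested T-cell markers were called, 6 higher and 1 lower in TRAIL+ cells. The list summed to 893 to 1205 RPKM in TRAIL+ and 47.4 to 55.0 in CD49b+ libraries, and Cd3g gave 812 and 1060 of the TRAIL+ sums. The other 4 of the 11 listed stayed under the threshold for testing. Among these, Cd5 held 0.590 and 0 RPKM in TRAIL+ and 0.454 and 0.122 in CD49b+ libraries. Cd6 held 0.725 and 0.520 against 0.465 and 0.250, and Cd8b1 0 and 0.186 against 1.16 and 0.179. Kupffer cell and monocyte markers (0 of 5 tested called) summed to 19.2 to 96.1 and 15.6 to 136 RPKM, with Marco at 0 in all libraries. Neutrophil markers (0 of 3) summed to 4.76 to 25.9 and 0.644 to 28.9 with Elane at 0, and erythroid and platelet markers (0 of 2) to 35.4 to 103 and 5.81 to 111. These 3 sums were highest in replicate 1 of each subset. B-cell markers (0 of 4) summed to 17.1 to 24.2 and 13.4 to 25.6, and endothelial and stellate markers (0 of 1) to 43.3 to 53.0 and 41.4 to 44.0, nearly all of it Pecam1. Hepatocyte markers (1 of 5, Trf, higher) summed to 102 to 104 and 23.4 to 47.7. The part of these cells in the results was not tested, and in bulk samples fewer cells of a type and less RNA per cell cannot be told apart.

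TRAIL+ cells differed from CD49b+ cells in 13 of the 193 non-coding genes, 10 higher and 3 lower (limma, log2(RPKM + 1) scale, called at an adjusted p under 0.05, 2 libraries per subset). That is 6.74% of the set, under the background of 8.62% of all 10047 rows tested (4.76% higher and 3.86% lower). The median log2 difference was 0.06 over the set and 0.00 over all tested rows. Groups did not overlap in 81 of the 193 genes (42.0%), against 46.8% of all tested rows. At an unadjusted p under 0.05 the set had 24 genes higher and 14 lower, 38 of 193, and all tested rows had 1117 higher and 889 lower, 2006 of 10047. Among the 155 genes with at least 10 reads over the 4 libraries, 8 were higher and 1 was lower (5.81%). By class, the calls were 3 of 42 pseudogenes (all higher), 5 of 69 uncharacterised transcripts (4 higher, 1 lower), 4 of 52 small RNAs (2 higher, 2 lower), 1 of 9 characterised long non-coding RNAs (higher), 0 of 15 host genes and 0 of 6 opposite-strand transcripts. The counts over the whole set, higher and lower, moved when a single library was left out, and those over all tested rows moved in the same direction each time. By class this did not always hold. Without CD49b+ replicate 1 or 2 the small RNA calls rose while the calls over all tested rows fell, and the opposite-strand count never moved.

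**Figure D1:**
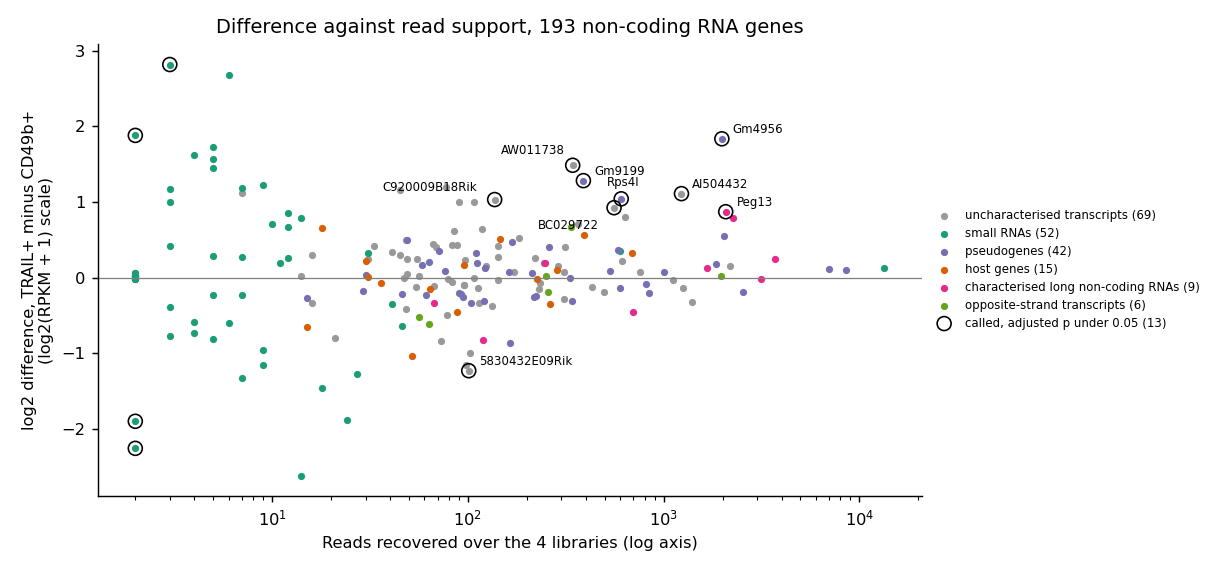
Log2 difference between TRAIL+ and CD49b+ cells (y axis, log2(RPKM + 1) scale) against the reads recovered over the 4 libraries (x axis, log scale), 1 point for each of the 193 non-coding RNA genes, coloured by class, with open circles around the 13 called genes. The 4 called small RNAs sit at the far left with 2 or 3 reads each, and the other 9 called genes have 101 to 2075 reads.

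Gm4956, a transcribed pseudogene on chromosome 1, showed the largest called difference among genes with at least 10 reads. It stood at 140 and 201 RPKM in TRAIL+ replicates 1 and 2 and at 37.9 and 56.8 RPKM in CD49b+ replicates 1 and 2. Both TRAIL+ libraries lay above both CD49b+ libraries by a wide margin. The means were 171 ± 43.1 and 47.4 ± 13.4 RPKM (SD, n = 2 each), a ratio of 3.61, and the log2 difference was 1.84 ± 0.28 (SE, limma adjusted p = 0.0154). The call was kept in 11 of 12 alternatives and lost without CD49b+ replicate 1 (limma adjusted p = 0.0746). Its closest coding match, Gsta2, a glutathione transferase gene, covered 23.5% of it at 73.9% identity. Its neighbours were Gsta3, another glutathione transferase gene, under the threshold for testing, and Khdc1a, a KH-domain gene that moved the other way. Khdc1a held 0.252 and 0.135 RPKM in TRAIL+ and 24.0 and 27.2 RPKM in CD49b+ libraries, a log2 difference of -4.48 ± 0.21 (limma adjusted p = 0.000565).

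Gm9199 and Rps4l were the other 2 called pseudogenes. Gm9199, on chromosome 14, held 22.1 and 33.2 RPKM in TRAIL+ and 10.1 and 11.05 RPKM in CD49b+ libraries, and the groups did not overlap. Its log2 difference was 1.28 ± 0.24 (limma adjusted p = 0.0311; 0.176 and 0.127 without CD49b+ replicate 1 and 2). It overlaps Cysltr2, which encodes a receptor for cysteinyl leukotrienes and held 28.1 and 22.8 against 9.54 and 12.4 RPKM (log2 difference 1.15 ± 0.21, limma adjusted p = 0.0310, and up to 0.278 with 1 library left out). The next coding gene with a row, Rcbtb2, held 32.8 and 34.5 against 7.69 and 8.80 RPKM (1.91 ± 0.17, limma adjusted p = 0.00305). All 3 rows were higher in TRAIL+ cells, with no overlap between the subsets in any of them. Rps4l, a ribosomal protein S4-like sequence on chromosome 6, held 52.4 and 57.5 RPKM in TRAIL+ and 24.3 and 28.1 RPKM in CD49b+ libraries, again without overlap. Its log2 difference was 1.04 ± 0.17 (limma adjusted p = 0.0183; 0.255 and 0.133 without CD49b+ replicate 1 and 2). It was 79.7% identical to the Rps4x transcript over 86.0% of its length, and the gene it overlaps, Tmtc1, held 0.947 to 3.13 RPKM and was not called.

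AW011738, an uncharacterised transcript on chromosome 4, held 13.1 and 11.1 RPKM in TRAIL+ and 3.79 and 3.52 RPKM in CD49b+ libraries. The groups were far apart relative to their replicates, at 12.1 ± 1.41 and 3.65 ± 0.189 RPKM (SD, n = 2 each), a ratio of 3.30 and a log2 difference of 1.49 ± 0.20 (limma adjusted p = 0.0106; 0.0763 and 0.0982 without CD49b+ replicate 1 and 2). The nearest coding gene before it is Isg15, a ubiquitin-like protein induced by interferon. Isg15 held 56.4 and 83.3 RPKM in TRAIL+ and 22.8 and 24.8 RPKM in CD49b+ libraries, a log2 difference of 1.49 ± 0.23 (limma adjusted p = 0.0160, and up to 0.0888 with 1 library left out). The gene that AW011738 overlaps, Perm1, a muscle regulator of energy metabolism, stood at 0 to 0.639 RPKM.

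AI504432, a long transcript on chromosome 3 next to the potassium channel genes Kcna3 and Kcna2, held 19.4 and 19.6 RPKM in TRAIL+ and 8.18 and 8.80 RPKM in CD49b+ libraries. The replicates of each subset agreed closely and the subsets did not overlap, with a log2 difference of 1.11 ± 0.17 (limma adjusted p = 0.0168; 0.216 and 0.165 without CD49b+ replicate 1 and 2). Kcna3 held 22.0 and 6.84 against 9.72 and 7.36 RPKM, so 1 TRAIL+ library stood apart and the gene was not called. BC029722, on chromosome 2 opposite Mmp24, held 32.7 and 34.0 against 17.2 and 17.0 RPKM, with no overlap. Its log2 difference was 0.92 ± 0.16 (limma adjusted p = 0.0228; 0.270 and 0.280 without CD49b+ replicate 1 and 2). It shares 637 bases with a transcript of Mmp24, a matrix metalloproteinase, on the other strand, and the Mmp24 row was listed at 0 in all 4 libraries. C920009B18Rik, on chromosome 10 beside Raet1d, which encodes a ligand of the NK receptor NKG2D, held 5.44 and 5.49 against 2.30 and 2.03 RPKM. The 2 subsets did not overlap, and the log2 difference was 1.03 ± 0.21 (limma adjusted p = 0.0406; 0.250, 0.322 and 0.0546 without CD49b+ replicate 1, CD49b+ replicate 2 and TRAIL+ replicate 2). Raet1d itself was at 0 in 3 libraries and at 0.103 RPKM in CD49b+ replicate 2.

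5830432E09Rik was the 1 gene with at least 10 reads that was called lower in TRAIL+ cells. It held 7.88 and 6.35 RPKM in TRAIL+ and 17.5 and 18.3 RPKM in CD49b+ libraries, from 28 and 73 reads. The subsets did not overlap, and the log2 difference was -1.23 ± 0.19 (limma adjusted p = 0.0175; 0.156 and 0.184 without CD49b+ replicate 1 and 2). It lies on chromosome 7 within Ptpre, a protein tyrosine phosphatase gene at 12.7 to 15.2 RPKM whose log2 difference was -0.10 ± 0.18 and which was not called. It shares 80 bases with a Ptpre transcript on the other strand.

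**Figure D2:**
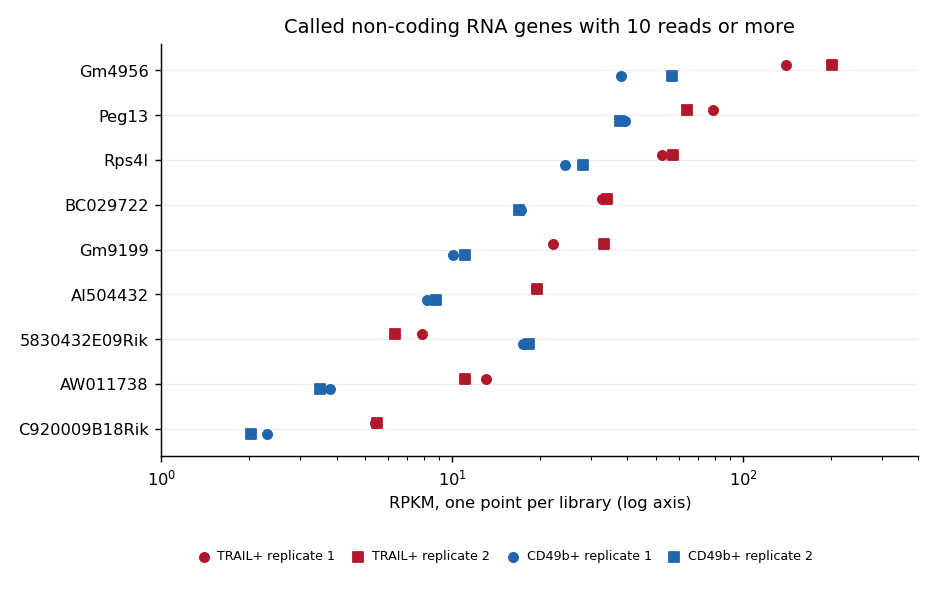
RPKM (x axis, log scale) of the 9 called non-coding RNA genes with at least 10 reads, 1 point per library, red for TRAIL+ and blue for CD49b+, circles for replicate 1 and squares for replicate 2. In 8 genes both TRAIL+ points lie to the right of both CD49b+ points, and in 5830432E09Rik they lie to the left.

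Some calls also depended on the settings. With no level filter Gm9199, C920009B18Rik and Peg13, described below, lost their calls (limma adjusted p = 0.0614, 0.0792 and 0.0557), with voom weights 5830432E09Rik did (0.0740), and C920009B18Rik was also lost at 5 RPKM or more and Peg13 with a constant prior. The direction was kept in each.

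Across the 13 called genes, 24 neighbouring or overlapping coding genes were tested; 4 were higher, 1 was lower and 19 were not called, with the background at 4.76% higher and 3.86% lower. Those higher were Cysltr2, Rcbtb2, Isg15 and Rnf149, and Khdc1a was lower. Rnf149, a RING-finger gene next to Snord89, held 32.0 and 35.6 RPKM in TRAIL+ and 9.79 and 10.1 RPKM in CD49b+ libraries (log2 difference 1.67 ± 0.17, limma adjusted p = 0.00427). Of the 13 genes, 9 overlap a coding gene in the later build. Overlap was taken from gene spans with introns, and whether strand was used in counting is not known here. BC029722 and 5830432E09Rik share bases with a transcript of the gene they overlap, and over those bases the reads of both cannot be told apart. Peg13, Snord91a, Snord71 and Snord16a matched no coding transcript. The best match of Rps4l and AW011738 was another gene, and Gm9199 had no sequence to compare.

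Among the characterised long non-coding RNAs, Peg13 was called higher in TRAIL+ cells. Peg13 is an imprinted transcript read from the paternal chromosome within Trappc9, on chromosome 15. It held 78.9 and 64.2 RPKM in TRAIL+ and 39.2 and 37.7 RPKM in CD49b+ libraries. Both TRAIL+ libraries lay above both CD49b+ libraries, at 71.5 ± 10.4 and 38.4 ± 1.08 RPKM (SD, n = 2 each), a log2 difference of 0.87 ± 0.17 (limma adjusted p = 0.0392; 0.324 and 0.362 without CD49b+ replicate 1 and 2). Trappc9, a trafficking complex subunit, held 10.3 and 7.15 against 9.35 and 7.96 RPKM and was not called.

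Malat1 fell just short of the threshold. It held 27.9 and 24.3 RPKM in TRAIL+ and 14.2 and 15.2 RPKM in CD49b+ libraries, without overlap (log2 difference 0.79 ± 0.17, limma adjusted p = 0.0533), and it was called by limma with voom weights on the recovered reads (adjusted p = 0.0435). With 1 library left out its limma adjusted p ran from 0.0320 to 0.511. Neat1, the scaffold of paraspeckles and Malat1's neighbour on chromosome 19, leaned the other way, with 12.4 and 10.4 against 16.5 and 15.4 RPKM and a log2 difference of -0.46 ± 0.19 (limma adjusted p = 0.260). The subsets did not overlap in either gene, but only Malat1 came near the threshold. The difference between the genes was not tested.

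The remaining 6 of the 9 gave no call. Morrbid held 0.711 and 1.12 RPKM in TRAIL+ and 2.00 and 2.77 RPKM in CD49b+ libraries, from 32 and 87 reads, a log2 difference of -0.82 ± 0.26 (limma adjusted p = 0.146). Xist held 6.75 and 5.48 against 5.43 and 5.50 RPKM, so it was present at a like level in all 4 libraries. Norad, a sponge of Pumilio proteins, held 50.3 and 52.3 against 39.8 and 46.3, and Tug1 held 29.2 and 29.1 against 27.7 and 31.2 RPKM. Dubr held 6.69 to 11.9 RPKM and Pvt1, the Myc neighbour, 0.942 to 1.92 RPKM. Among the opposite-strand transcripts, Oip5os1, also known as Cyrano and needed for the decay of miR-7, was the most abundant at 71.6 to 87.5 RPKM with overlapping subsets. Its partner precursor Mir7-1 was counted on 6 reads in all.

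**Figure D3:**
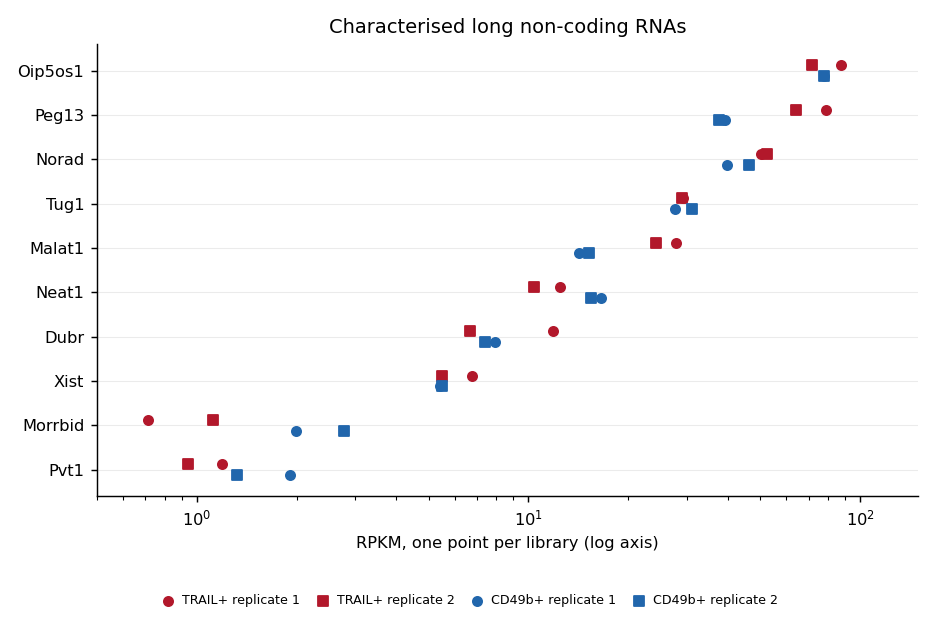
RPKM (x axis, log scale) of the 9 characterised long non-coding RNAs and of Oip5os1, 1 point per library, red for TRAIL+ and blue for CD49b+, circles for replicate 1 and squares for replicate 2. Peg13, Malat1 and Norad have both TRAIL+ points to the right of both CD49b+ points, Neat1, Morrbid and Pvt1 have them to the left, and the subsets overlap in Oip5os1, Tug1, Dubr and Xist.

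The proteins that act with these RNAs were read from the same fit. None was called among 13 snoRNA particle proteins, 17 factors of nonsense-mediated decay, 12 miRNA processing and effector proteins, 15 paraspeckle and nuclear speckle proteins and 13 X inactivation factors tested by limma. At an unadjusted p under 0.05 there was 1 snoRNA particle protein, lower in TRAIL+ cells, and none in the other 4 lists, and voom weights called none. The median log2 differences were -0.09, -0.03, -0.06, 0.04 and -0.08, against 0.00 over all tested rows. Of those 10047 rows, 8.62% were called by limma, 2006 had an unadjusted p under 0.05, and voom weights called 883.

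The host genes gave no call between the subsets, and their levels differed between the replicate numbers. None of the 15 was called by limma, none had an unadjusted p under 0.05, and none was called with voom weights. Over all 10047 tested rows, 8.62% were called by limma, 2006 had an unadjusted p under 0.05, and voom weights called 883. The median log2 difference of the host genes was 0.01. In 10 of the 15 (66.7%) replicate 2 was above replicate 1 in both subsets, against 37.4% of all tested rows, and in 2 (13.3%) replicate 1 was above replicate 2 in both, against 34.6%. The same held for 57 of 69 ribosomal protein genes (82.6%), and over the whole set for 89 genes (46.1%) against 31 (16.1%) the other way round. Snhg1, host of a group of box C/D snoRNAs, held 14.7 and 31.0 RPKM in TRAIL+ and 11.2 and 19.4 RPKM in CD49b+ libraries. Snhg8 held 28.5 and 48.5 against 21.7 and 28.2 RPKM, and 2410006H16Rik held 20.0 and 44.8 against 35.5 and 41.5 RPKM. In each of these 3 the replicates of a subset differed by as much as the subsets did. Gas5, whose spliced RNA builds up when growth stops, held 6.53 and 7.95 against 5.45 and 8.15 RPKM, and Snhg12 held 1.61 and 5.19 against 6.57 and 7.91 RPKM, the widest difference among the hosts at -1.03 ± 0.43 (limma adjusted p = 0.272). Of the miRNA hosts, Dleu2, which carries the miR-15a and miR-16-1 cluster, held 6.93 and 9.48 against 6.39 and 10.5, Mir22hg 2.54 to 3.74 and Mir17hg 0.435 to 1.21 RPKM. The monocyte, neutrophil and erythroid sums given above moved the opposite way with replicate number; their part in this was not tested.

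**Figure D4:**
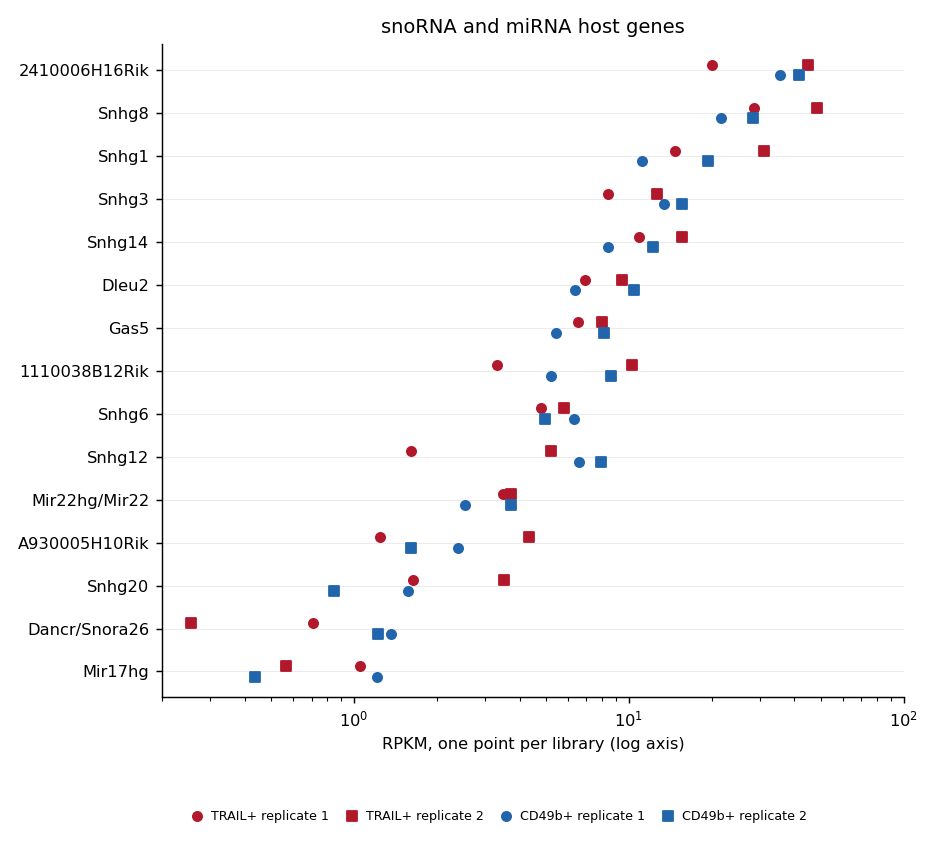
RPKM (x axis, log scale) of the 15 snoRNA and miRNA host genes, 1 point per library, red for TRAIL+ and blue for CD49b+, circles for replicate 1 and squares for replicate 2. In 10 genes the squares lie to the right of the circles of the same colour in both subsets. The colours are fully apart in 5 of the 15 (33.3%), against 46.8% of all tested rows.

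Because ribosomal protein and snoRNA host transcripts are known to begin with a run of pyrimidines, the terminal oligopyrimidine tract through which growth signals control them, the annotated starts were examined. The run searched was a C followed by at least 4 C or T letters, beginning within 5 bases of the annotated start on the gene's own strand. A gene was counted if any of its annotated starts had the run. It stood at 8 of the 14 host genes with a promoter entry (57.1%), at 29 of 61 ribosomal protein genes (47.5%) and at 21.2% of all 27025 genes. The 8 include the miRNA host Mir22hg, and Gas5 and A930005H10Rik also have annotated starts without the run. The 4 most abundant host genes with the run are shown with Snhg1, the most abundant of those without it; each window runs from 20 bases before to 40 bases from the annotated start (RefSeq, GRCm38.p6), and capitals mark the run.
2410006H16Rik (chr11:62602857-62602916, plus strand): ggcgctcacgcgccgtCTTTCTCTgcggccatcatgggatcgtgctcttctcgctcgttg
Snhg8 (chr3:123508297-123508356, minus strand): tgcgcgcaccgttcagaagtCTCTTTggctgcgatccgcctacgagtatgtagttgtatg
Snhg3 (chr4:132353647-132353706, minus strand): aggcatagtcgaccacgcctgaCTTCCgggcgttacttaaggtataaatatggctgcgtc
Gas5 (chr1:161035146-161035205, plus strand): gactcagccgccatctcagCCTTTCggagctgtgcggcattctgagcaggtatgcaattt
Snhg1 (chr19:8723467-8723526, plus strand): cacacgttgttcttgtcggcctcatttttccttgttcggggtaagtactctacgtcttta
A match describes these letters and not a site in use. The search found the run at only 29 of 61 ribosomal protein genes, so a missing match, as at Snhg1, does not show that a transcript lacks the tract.

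Small RNA rows carried few reads, Mir682 and Mir703 apart. Of the 52, 37 had fewer than 10 reads over the 4 libraries. On the Snord71 row, 65 bases long, 1 read stood for 3.63 RPKM in CD49b+ replicate 1. The 4 called snoRNAs rested on this: Snord91a had 2 and 1 reads in TRAIL+ and 0 in both CD49b+ libraries, and Snord89 had 1 and 1 against 0 and 0. Snord71 and Snord16a each had 0 and 0 against 1 and 1. None of these 4 was called on the recovered reads (limma with voom weights, adjusted p = 0.257 to 0.405), and no fold is given because both groups lie within the 3 reads that a count of 0 allows. Mir142 held 15.1 and 4.06 against 18.2 and 31.3 RPKM from 18 reads, and Mir24-2, Mir23a and Mir27a had 12, 5 and 3 reads; differences were not detectable at this depth.

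Mir682 held 6130 and 12546 RPKM in TRAIL+ and 6839 and 9379 RPKM in CD49b+ libraries, and its 13415 reads were 11.9% (95% Wilson interval 11.5 to 12.4), 19.02% (18.5 to 19.5), 14.7% (14.2 to 15.3) and 17.5% (17.0 to 18.03) of the set's reads in TRAIL+ replicates 1 and 2 and CD49b+ replicates 1 and 2. Replicate 2 was higher in both subsets and the subsets overlapped (log2 difference 0.13 ± 0.51). The Rpl37a row held only 9.99, 26.4, 11.2 and 19.4 RPKM in the same order, so the hairpin row stood 475 to 614 times above it. The reads of both rows cannot be told apart over the 95 letters they share. Mir703 also matched a coding transcript, but its row stood below the coding row. Its hairpin was 98.2% identical to Eef1a1, the translation elongation factor. The Mir703 row held 272, 507, 234 and 358 RPKM against 3820, 5422, 3665 and 4280 RPKM on the Eef1a1 row.

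Of the 170 genes with a transcript sequence in the references, 22 matched a protein-coding transcript at 90% identity or more over at least 90% of their length, 17 pseudogenes and 5 small RNAs. None of the 22 was called, against 8.62% of all tested rows. For some the non-coding row was the larger of the pair. Rps15a-ps6 held 107 to 233 RPKM, 5.03 to 6.12 times the row of Rps15a, a small-subunit ribosomal protein gene, at 98.7% identity. Npm3-ps1 held 92.9 to 157 RPKM, 5.92 to 8.11 times the row of the histone chaperone gene Npm3 at 98.9% identity, and Gm5801 stood 2.01 to 2.61 times above Ube2j2. Gm5424 held 1.53 to 6.85 RPKM while its near-identical gene Ass1, the urea cycle enzyme argininosuccinate synthase, stood at 0 to 0.298 RPKM. For others the coding row dominated: Gm6548 held 232 to 314 RPKM, well under its match Eef1a1 at 96.7% identity, and Selenok-ps1 held 3.44 to 6.49 RPKM against 35.8 to 67.1 on Selenok. The values of these 22 rows are therefore uncertain between the non-coding gene and the coding gene it matches. The same may hold for other rows. Gm15421 was 99.7% identical to Rpl22l1 over 79.9% of its length, under the cut. Ubb-ps, Ndufs5-ps, the row named RPL6 and the called Gm9199 had no sequence to compare. Ubb-ps, Gm15421, AI662270, a row named RPL6 in the files, and Ndufs5-ps completed the 12 most abundant of the set with Oip5os1 and Gm4956; their levels were 612, 680, 572 and 624 RPKM for Ubb-ps and 56.6 to 244 RPKM for the others, all without a call.

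**Figure D5:**
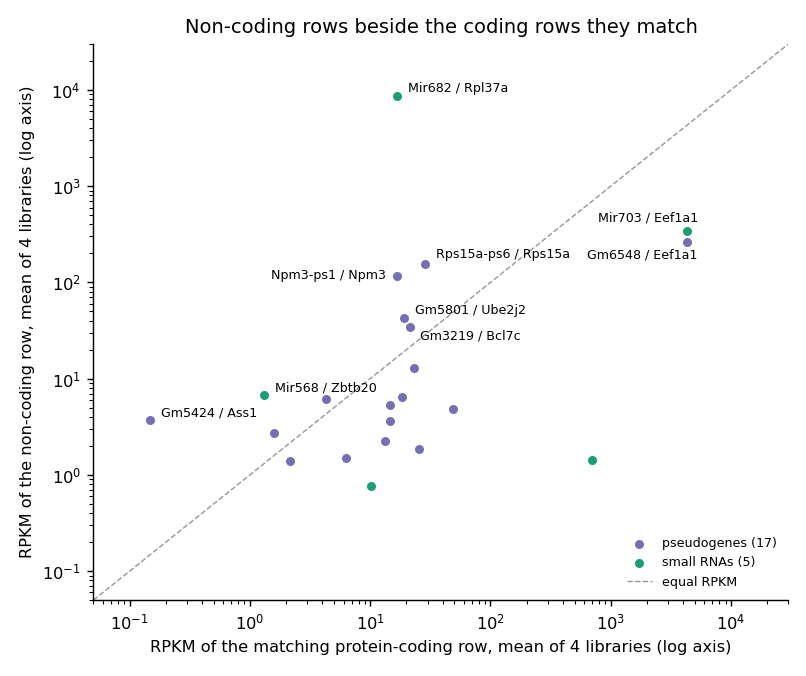
Mean RPKM over the 4 libraries of the 22 non-coding rows (y axis, log scale) that match a protein-coding transcript at 90% identity or more, against the mean RPKM of the matching coding row (x axis, log scale), 1 point per pair, purple for pseudogenes and green for small RNAs, with a dashed line of equal RPKM. Mir682, Rps15a-ps6, Npm3-ps1 and Gm5424 lie above the line, and Mir703 and Gm6548, both matching Eef1a1, lie below it.

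At the level of presence, 133 of the 193 genes held at least 1 RPKM in all 4 libraries. In 6 genes both TRAIL+ libraries and neither CD49b+ library reached it, in 6 the reverse, and the others were mixed. Over all 10047 tested rows, 9076 reached it in all 4 libraries, 217 in TRAIL+ only and 191 in CD49b+ only. Small RNAs, with a median of 5 reads over the 4 libraries, made up 3 of each 6.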

How the data were processed

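RNA from 2 TRAIL+ and 2 CD49b+ NK cell samples was sequenced, and titles gave the groups and replicate numbers. The authors deposited RPKM, per the file headers. The submitters' processing notes name TopHat 1.4.1 and build mm9. How reads were counted, on which annotation and with or without strand, is not given in the sources used here. Names and neighbours were looked up in RefSeq of GRCm38.p6 (182 of the 193 by accession, by GENCODE accession or by synonym; 11 kept the file's name, and may carry the name of a protein family). Sequences and their coordinates are from RefSeq of GRCm38.p6 or from GENCODE M21, a later build than the files', and no coordinate of the files is given.

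RPKM moved in whole steps: a row length was found for each of the 13681 rows above 0 for which all libraries were whole reads within 1e-05 reads (100%), and in a check 798 of 798 rows were whole and 0 after a random factor. The main test was limma 3.58.1 (R 4.3.3; lmFit, eBayes with a trended prior) on log2(RPKM + 1) over the 10047 rows that reached 1 RPKM in 2 or more libraries, coded TRAIL+ minus CD49b+, with 2 residual degrees of freedom and Benjamini-Hochberg adjustment over all rows. Called means an adjusted p under 0.05. On this scale the differences of low genes are understated. Ratios are of mean RPKM. The test was checked on simulated reads. Alternatives were other pseudocounts (0.1, 0.5), other level filters, median ratio scaling, a constant prior, a replicate block, limma with voom weights on the recovered reads (883 of all rows called), each library left out and, added after seeing the data, members with at least 10 reads. Transcripts were compared with protein-coding transcripts of GENCODE M21 by blastn 2.17.0+.

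The genes named are all called members, the 12 most abundant, members of the lists of host genes and characterised long non-coding RNAs, 3 genes on each side of the threshold, the neighbours of called members and called members of each partner list; Selenok-ps1, Gm5801, Gm5424, Mir142, Mir24-2, Mir23a, Mir27a and Mir7-1 were chosen after their values were seen. Classes follow symbols, fixed lists and the RefSeq gene type, except that Mir17hg and Mir22hg, whose names begin like miRNAs, were put with the host genes. The members and lists were chosen with earlier results of these data known.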

Additional observations from a re-analysis of the deposited data

How the results depend on the processing

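All values rest on 2 libraries per subset; where 1 library is left out, the lone sample is assumed to vary like the rest, and the cause of the shifts was not tested. The median difference of all tested rows stayed between -0.02 and 0.03 under every setting. Of the members, 10 were called higher and 3 lower. With a replicate block, 24 were higher and 15 lower, beside 1049 higher and 833 lower of all 10047 tested rows. A constant prior gave 5 lower, voom weights 0 lower and the members with at least 10 reads 1 lower. With libraries left out, 3 to 20 were higher and 2 to 12 lower. By class, the pseudogene calls (3) were 5 with the replicate block and 0 to 6 with libraries left out. The small RNA calls (4) were 0 at RPKM of at least 5 and with voom weights, 14 with the replicate block and 5 to 13 with libraries left out. The uncharacterised calls (5) were 15 with the replicate block and 0 to 11 with libraries left out. The characterised calls (1) were 0 with no level filter, 0 with a constant prior, 3 with the replicate block, 2 with voom weights and 0 to 2 with libraries left out. The host gene calls (0) were 2 with the replicate block and 0 to 2 with libraries left out. Calls in the partner lists (0) reached 1, 2, 1 and 1 for decay factors, miRNA processing, speckle proteins and X inactivation without TRAIL+ replicate 1, and the calls among neighbours (5) fell to 3 without either CD49b+ replicate; Cysltr2 and Isg15 each lost theirs with at least 1 library left out, and Rcbtb2, Rnf149 and Khdc1a did not. Of the 9 called members with at least 10 reads, Gm4956 lost its call without CD49b+ replicate 1 and the other 8 without either CD49b+ replicate, C920009B18Rik also without TRAIL+ replicate 2. No called difference changed sign under these settings. Of 12 uncalled genes followed across the settings, 4 did: with libraries left out the log2 difference ran from -0.39 to 0.65 for Mir682 (0.13 with all), -0.12 to 0.16 for Oip5os1 (0.02), -0.094 to 0.071 for Tug1 (-0.01) and -0.16 to 0.35 for Gas5 (0.10), and median ratio scaling gave -0.0031 for Oip5os1. Deviations of same-numbered libraries correlated at 0.56 over all tested rows and 0.25 over the members (Pearson, across genes), but the labels do not say that a number marks a shared mouse or day, so the block is given here and nowhere else. No sample or group met the conditions for a closer look, since groups of 2 are too small for them. Depth limits the small RNAs most.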
